A study of Mus musculus with 6 samples.

Results

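The genes of the nuclear RNA polymerases and of the mitochondrial RNA polymerase were followed in Hepa1-6 cells, a mouse hepatoma line, after knockdown of Crebl2. The members are the protein-coding genes whose GENCODE M21 symbol begins with Polr1, Polr2 or Polr3, together with Polrmt. This rule gave 29 genes of the 21782 protein-coding genes with a row in the count files, and 5 belong by name to polymerase I, 13 to polymerase II, 10 to polymerase III and 1 to mitochondria. In 3 control libraries the cells received an siRNA labelled Renilla Luciferase, a reporter gene that mouse cells do not carry (Luc siRNA). In the other 3 libraries they received an siRNA against Crebl2, a bZIP gene of the family that includes CREB. All 6 libraries came from cells kept in DMEM with 4.5 g/L glucose, 10% fetal serum and penicillin-streptomycin, transfected with Lipofectamine RNAiMAX for 3 days, and all were made from total RNA with a stranded kit. The model is a single established tumour line, and the labels do not say whether replicates were separate cultures, so the p-values measure the spread between these libraries, which may be technical.

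RNA polymerase I transcribes the precursor of the large ribosomal RNAs, RNA polymerase II transcribes mRNAs, and RNA polymerase III transcribes tRNAs and other short RNAs. Each nuclear enzyme is built around a pair of large catalytic subunits that form the active centre. These sit on a small assembly platform and are joined by a stalk, by small subunits common to all the nuclear enzymes, and by subunits particular to each enzyme. Polrmt is a single-subunit enzyme, encoded in the nucleus, that transcribes the mitochondrial genome. In growing cells, hepatoma cells among them, polymerases I and III supply the RNAs of the translation machinery.

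The libraries held 27082572 to 29158489 counts. Crebl2 itself had 113.9, 113.3 and 112.2 CPM in controls (CPM is the count relative to the library size, with sizes scaled by edgeR's TMM method) and 29.11, 29.75 and 32.31 CPM after Crebl2 siRNA, so the targeted gene followed the labels in every library. Transcripts of the mitochondrial genome took 2.09% to 2.52% of the counts in 5 libraries and 0.859% in Crebl2 siRNA replicate 2, which stood apart. Of 10 hepatocyte markers, 4 averaged at least 1 CPM (Alb, Afp, Trf and Fgb), their list summing to 1040 to 1130 CPM in controls and 1010 to 1090 CPM after knockdown. Within that sum Fgb fell by 1.41 and Trf by 0.42 on the log2 scale (adjusted p = 4.45e-10 and 7.27e-05, edgeR), Afp rose by 0.36 (9.26e-06), and Alb did not pass the test; their part in the results was not tested. Apoa2, Hnf4a and Serpina1a were listed at 0 in every library, and their rows had 29, 6 and 0 bases to themselves. Ttr, Apoa1 and Apob were nearly absent too, with 23, 54 and 6 counts in controls. Their rows had 1186, 1035 and 13934 bases to themselves, so few unique bases do not account for these low counts. The fibroblast list (3 of 8 at 1 CPM or more) summed to 224 to 236 CPM in controls and 178 to 197 CPM after knockdown, with Col3a1 and Pdgfrb at 0, and its part in the results was not tested. The 6 endothelial and 6 leukocyte markers summed to at most 0.432 and 1.07 CPM in any library, with Tek and Ptprc at 0.

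Sequences of 3 members that rose under every processing alternative and whose upstream stretch holds no annotated exon are shown first, because the values below turn on the large catalytic subunits. Each is the stretch just before the annotated start from RefSeq (build GRCm38.p6), written 5′ to 3′ on the gene's strand and ending before the gene's first annotated exonic base. Capitals mark a CCAAT box in Polr1a (chr6:71908803-71909052, plus strand), a GC box in Polr1b (chr2:129100746-129100994, plus strand), and the core letters of the cAMP response element, read here as CGTCA, with GC boxes in Polr2a (chr11:69758638-69758883, minus strand).
Polr1a: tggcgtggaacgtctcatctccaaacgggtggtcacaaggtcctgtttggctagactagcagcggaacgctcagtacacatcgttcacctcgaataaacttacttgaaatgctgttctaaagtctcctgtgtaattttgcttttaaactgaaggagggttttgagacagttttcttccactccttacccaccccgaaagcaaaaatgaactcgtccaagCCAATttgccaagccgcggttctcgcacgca
Polr1b: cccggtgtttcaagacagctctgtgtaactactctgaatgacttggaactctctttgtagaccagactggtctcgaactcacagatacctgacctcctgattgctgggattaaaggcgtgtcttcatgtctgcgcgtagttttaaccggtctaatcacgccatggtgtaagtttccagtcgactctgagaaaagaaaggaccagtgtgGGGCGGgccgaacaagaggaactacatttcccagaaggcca
Polr2a: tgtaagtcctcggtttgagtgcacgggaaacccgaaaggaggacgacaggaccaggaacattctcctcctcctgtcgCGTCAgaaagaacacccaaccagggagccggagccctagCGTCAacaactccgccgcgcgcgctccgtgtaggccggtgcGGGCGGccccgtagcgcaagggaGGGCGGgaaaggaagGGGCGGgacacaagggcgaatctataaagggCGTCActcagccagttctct

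Of the 29 members, 23 had an entry in the RefSeq promoter table, and motifs were searched on both strands in the 250 bases before the start. The 23 genes had 25 windows, as Polr2h and Polr2m had more than 1. A gene was counted if any of its windows held the motif, whereas the shares given are of single windows. The full cAMP response element TGACGTCA, the site bound by CREB proteins, was found before 0 of the 23 genes, against 1.55% of all 32851 windows of that length. Its core TGACG, which the full element contains, was found before 6 genes (Polr1c, Polr1d, Polr2a, Polr2f, Polr2j and Polr2m) and in 17.8% of all windows. The GC box GGGCGG was found before 14 genes and in 32.7% of windows, and the CCAAT box before 7 genes and in 33.8%. The ETS motif CCGGAAGT was found before Polr1c, Polr2f, Polr2j and Polr3b (2.88% of windows), and the E-box CACGTG before Polr3c and Polr3gl (6.02%). The NRF1 motif was found before 0 members and in 0.782% of windows. The core was present in members that rose (Polr1c, Polr2a), in a member that fell (Polr1d) and in members that did not pass the test (Polr2f, Polr2j, Polr2m). The Polr1d window lies wholly inside exon 1 of its counted transcript (chr5:147077050-147077345), so its match is not upstream of that transcript. A match is a run of letters in a window and says nothing of binding.

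Of the members, 27 had enough counts to test. Of those, 7 rose and 4 fell after Crebl2 knockdown at an adjusted p under 0.05 (edgeR's quasi-likelihood test, Benjamini-Hochberg over all 11616 genes tested), and 16 did not pass. The share called, 40.7%, lay near the 38.9% called over all genes tested. Members called higher made up 25.9%, against 18.8% of all genes, and members called lower 14.8%, against 20.1%. The groups did not overlap for 15 members, and for 48.8% of all genes. The median log2 fold change was 0.07 over the members tested and 0.01 over all genes tested. The numbers of higher and lower calls depend on scaling: by library size alone they were 9 and 2 among members and 2741 and 1920 among all genes, where TMM scaling gave 7 and 4, and 2180 and 2338. Polr2i, with 9 counts in controls and 5 after knockdown, and Polr3d, with 4 and 6, did not enter the test.

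**Figure D1:**
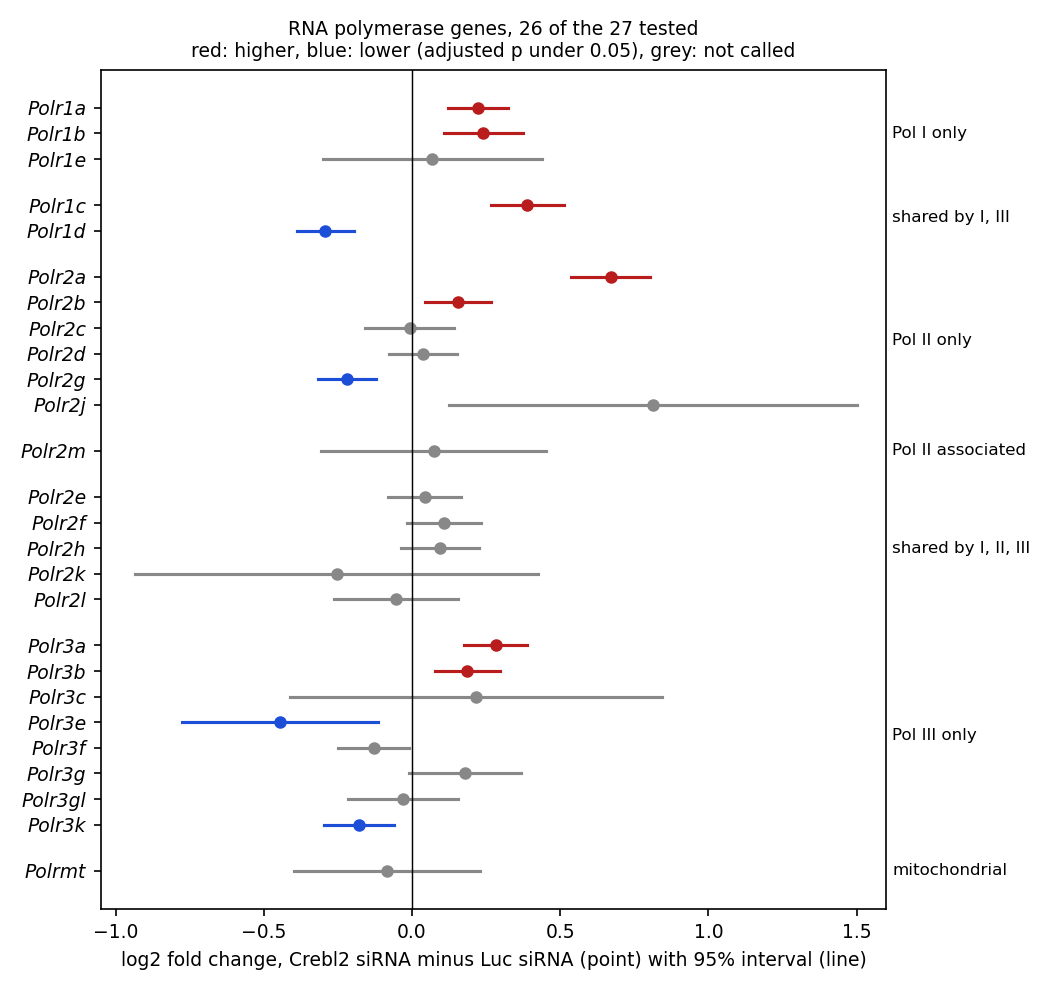
The log2 fold change (Crebl2 siRNA minus Luc siRNA) of 26 of the 27 tested members is plotted on the x axis as a point with its 95% interval as a line, with genes on the y axis grouped by the polymerases that contain them. The 7 red genes were called higher, the 4 blue genes lower, and none of the 5 subunits shared by all nuclear enzymes was called. Over all genes tested 38.9% were called.

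The members that rose were led by the catalytic subunits. The largest and the second largest subunit of polymerases I, II and III (Polr1a, Polr1b, Polr2a, Polr2b, Polr3a and Polr3b) were all called higher, 6 of 6, with log2 fold changes from 0.16 to 0.67 and a median of 0.23. Among the other 21 nuclear core subunits, 19 were tested, 1 was called higher and 4 lower, and the median was -0.01. Over all genes tested 18.8% were called higher and 20.1% lower. The groups also differ in depth. Polr1e, Polr2j, Polr2k, Polr3c and Polr3e had 38 to 278 counts in controls, whereas each catalytic gene had at least 3758. Without Luc siRNA replicate 3, 4 of the 6 catalytic genes were called. The difference between these role groups was not tested.

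Polr2a, which encodes the largest subunit of polymerase II with the C-terminal repeat domain, changed most among the called members. The gene lies at chr11:69733997-69758637 (minus strand, GRCm38; this build for all gene positions here). It had 45.90, 41.39 and 47.74 CPM in controls and 70.99, 73.88 and 69.95 CPM after knockdown. All knockdown libraries lay well above all controls. The mean went from 45.01 ± 3.27 to 71.61 ± 2.04 CPM (SD, n = 3 each), a rise of 59.1% and a log2 fold change of 0.67 with an SE of 0.0622 (adjusted p = 3.74e-07, edgeR). Reads common to several transcripts appear not to be counted, and this is assumed here and below. On that assumption these counts come from 941 bases, 14% of the transcript, that no other deposited row shares. Of these bases, 414 lie in the 5′ UTR of exon 1, 114 are coding bases in exon 27 and 413 lie in the 3′ UTR of exon 29. The coding stretch, chr11:69735901-69736014 on the minus strand, is then the piece of Polr2a's reading frame that the counts can see.
Polr2a exon 27: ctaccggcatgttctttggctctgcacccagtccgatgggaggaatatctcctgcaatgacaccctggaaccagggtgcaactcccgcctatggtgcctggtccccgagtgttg

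Polr2b, the gene of the second largest subunit of polymerase II (chr5:77310147-77349324), moved less. It had 306.9, 273.6 and 290.0 CPM in controls and 315.1, 318.0 and 337.2 CPM after knockdown. The lowest knockdown library lay just above the highest control. This was a log2 fold change of 0.16 with an SE of 0.0526 (adjusted p = 0.0262, edgeR), and the call was lost without Luc siRNA replicate 2 (adjusted p = 0.164), Luc siRNA replicate 3 (0.0879) or Crebl2 siRNA replicate 3 (0.0588).

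Polr1a, the largest subunit of polymerase I (chr6:71909053-71984935), had 281.0, 271.8 and 276.6 CPM in controls and 317.1, 336.3 and 315.1 CPM after knockdown. Controls were close together and every knockdown library was higher. The mean rose from 276.5 ± 4.60 to 322.8 ± 11.7 CPM (SD, n = 3 each), a log2 fold change of 0.22 with an SE of 0.0474 (adjusted p = 0.00131, edgeR). Its partner in the active centre, Polr1b (chr2:129100995-129126594), had 62.06, 66.94 and 73.61 CPM in controls and 77.15, 82.13 and 80.08 CPM after knockdown. The groups again did not overlap, although Luc siRNA replicate 3 came near the knockdown libraries. The log2 fold change of Polr1b was 0.24 with an SE of 0.0634 (adjusted p = 0.00625, edgeR).

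Polr3a, the largest subunit of polymerase III (chr14:24448696-24487058), had 103.3, 103.0 and 107.2 CPM in controls and 123.7, 128.2 and 129.5 CPM after knockdown. Every knockdown library exceeded every control by more than the spread within either group. The mean rose from 104.5 ± 2.35 to 127.1 ± 3.02 CPM (SD, n = 3 each), a log2 fold change of 0.28 with an SE of 0.05 (adjusted p = 0.000283, edgeR). Polr3b (chr10:84622292-84727178), the second largest subunit, had 109.5, 109.0 and 103.8 CPM in controls and 117.6, 123.1 and 126.2 CPM after knockdown. It was higher in every knockdown library, with a log2 fold change of 0.19 with an SE of 0.0518 (adjusted p = 0.00876, edgeR), and the call was lost without Luc siRNA replicate 3 (adjusted p = 0.0704). A stretch of 267 bases of Polr3a is 96.6% identical to the pseudogene Gm19034, and Polr3b, with 4728 of its 4975 bases to itself, overlaps the antisense transcript Gm17249. Whether the counting used strand was not given in the sources used here, so reads of Polr3b and Gm17249 cannot be told apart on those bases.

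The 2 assembly platform subunits that polymerases I and III share moved in opposite directions. Polr1c, at chr17:46243920-46248054 on the minus strand, had 49.55, 50.96 and 47.52 CPM in controls and 67.23, 64.80 and 61.91 CPM after knockdown. Polr1d, its binding partner in the platform, at chr5:147077050-147111597, had 351.9, 347.0 and 336.8 CPM in controls and 280.0, 284.4 and 281.3 CPM after knockdown. Neither gene's groups overlapped. Polr1c had a log2 fold change of 0.39 with an SE of 0.0578 (adjusted p = 5.39e-05, edgeR) and Polr1d of -0.29 with an SE of 0.0454 (adjusted p = 8.51e-05, edgeR). The counts rest on 521 bases of Polr1c (39.6% of its transcript) and on 848 bases of Polr1d (70.9%), where 373 of the unique bases are coding. In the corresponding platform pair of polymerase II neither gene was called, and the difference between the pairs was not tested. Polr2c had a log2 fold change of -0.01 (95% interval -0.16 to 0.14) and shares long stretches with Dok4 and with processed pseudogenes. Polr2j had 38 counts in controls and 67 after knockdown, with a log2 fold change of 0.81 (95% interval 0.13 to 1.5; edgeR adjusted p = 0.0579), and passed the threshold by library size scaling (adjusted p = 0.0448), without Luc siRNA replicate 2 (adjusted p = 0.045) or Crebl2 siRNA replicate 3 (0.047).

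**Figure D2:**
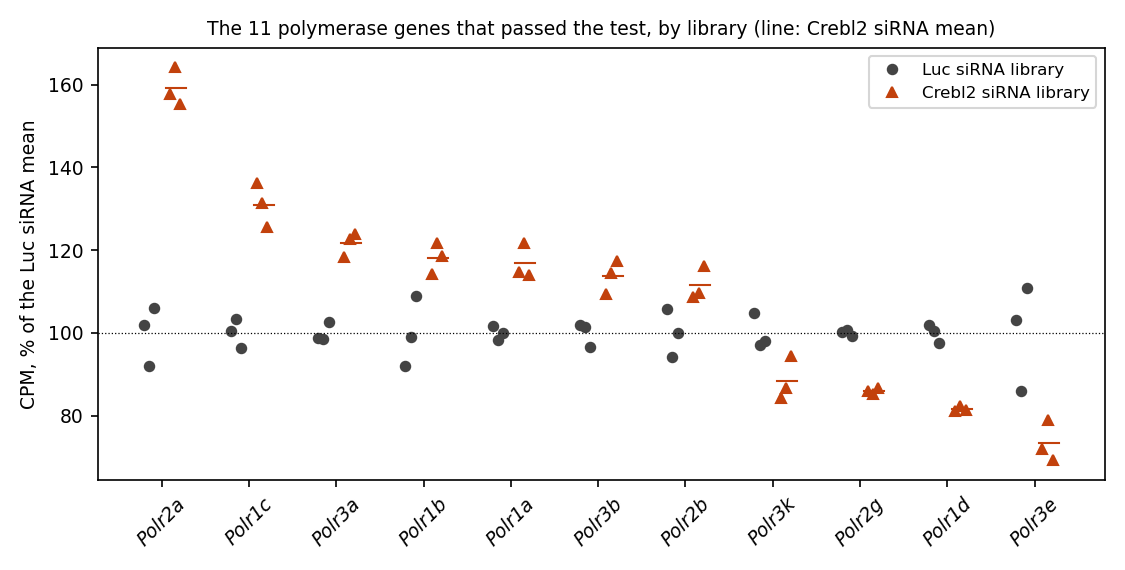
The y axis gives each library's CPM as a percentage of the Luc siRNA mean, for the 11 called members on the x axis, with circles for Luc siRNA libraries, triangles for Crebl2 siRNA libraries and a short line at the Crebl2 siRNA mean. Polr2a rose by 59.1% and Polr1c by 31.0% in the fit, Polr1d fell by 18.3%, and the circles and triangles do not overlap for any of the 11 genes.

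The 3 remaining members that fell belong to different parts of the enzymes. Polr2g, a stalk subunit of polymerase II (chr19:8793127-8798577), had 207.6, 208.5 and 205.6 CPM in controls and 178.1, 176.5 and 179.5 CPM after knockdown. The libraries of each group lay within a few CPM of each other and the groups were far apart. The mean fell from 207.2 ± 1.51 to 178.0 ± 1.48 CPM (SD, n = 3 each), a log2 fold change of -0.22 with an SE of 0.0461 (adjusted p = 0.00124, edgeR). Its partner in the stalk, Polr2d, had a log2 fold change of 0.04 (95% interval -0.08 to 0.15) and did not pass the test.

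Polr3k, a small polymerase III subunit involved in RNA cleavage and termination (chr2:181864337-181870830), had 156.5, 144.9 and 146.5 CPM in controls and 125.7, 129.4 and 140.8 CPM after knockdown. Crebl2 siRNA replicate 3 came close to the controls without reaching them. The log2 fold change was -0.18 with an SE of 0.0558 (adjusted p = 0.0181, edgeR), and the call was lost without Luc siRNA replicate 1 (adjusted p = 0.0797), Crebl2 siRNA replicate 1 (0.0633) or Crebl2 siRNA replicate 2 (0.0927). Polr3e (chr7:120917744-120947432), which acts in initiation and termination, was read from 1183 bases of its 3′ UTR and had 278 counts in controls and 204 after knockdown. Its values were 3.436, 2.867 and 3.690 CPM in controls and 2.399, 2.630 and 2.308 CPM after knockdown, low in every knockdown library. The log2 fold change of Polr3e was -0.44 with an SE of 0.156 (adjusted p = 0.0324, edgeR), and 4 of the 6 fits that leave out 1 library lost the call (Luc siRNA replicates 1 and 3, Crebl2 siRNA replicates 1 and 3), with adjusted p from 0.0678 to 0.135.

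Earlier results of these data had pointed to the letters GAAATGT in the 3′ UTRs of genes that fell. The word was found in 636 of 2180 searched genes called lower (29.2%), in 225 of 1890 called higher (11.9%) and in 957 of 5777 not called (16.6%). Because the word was taken from the falls in these same data, its excess among genes called lower is no independent result. The median 3′ UTR length was 1387 bases among genes called lower and 986.5 among genes called higher. Of the members, Polr2g and Polr3k carried it among the 4 that fell, 0 of the 7 that rose did, and Polr2m and Polr3f carried it among the 16 that did not pass. The siRNA sequences were not given in the sources used here, and the part of this word in the falls was not tested.

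Read by symbol among the members, each shared subunit was counted only under the polymerase in its name. Polymerase I then had 3 of 5 tested subunits called higher and 1 lower, with a median log2 fold change of 0.22. These include Polr1c and Polr1d, which polymerase III also contains. Of the 3 particular to polymerase I, 2 were called higher and 0 lower. Left out by the symbol rule are 2 tested polymerase I subunits with log2 fold changes of -0.07 and -0.10 that did not pass. Crcp of polymerase III, which rose, is left out in the same way. Polymerase II, with the associated factor Polr2m, had 2 of 12 higher and 1 lower, with a median of 0.06, and polymerase III had 2 of 9 higher and 2 lower, with a median of -0.03. By library size scaling both polymerase III calls in the lower direction were lost (adjusted p = 0.0561 for Polr3e and 0.0778 for Polr3k). Over the 18 tested nuclear members particular to a single enzyme, 6 were called higher and 3 lower, with a median of 0.11. Over the 7 shared subunits, 1 was called higher and 1 lower, both of them in the pair shared by polymerases I and III, with a median of 0.04. Over all genes tested 18.8% were called higher and 20.1% lower, and 2 of 12 or 2 of 9 higher is no result beside those shares. The differences between classes were not tested, and the classes hold few genes.

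The 5 small subunits common to polymerases I, II and III all failed to pass the test. Over all genes tested 38.9% were called, so 0 of 5 is too small a count to read as a trait of this class. Polr2e had a log2 fold change of 0.04 (95% interval -0.08 to 0.17) and Polr2h 0.09 (-0.04 to 0.23). Polr2f had 0.11 (95% interval -0.02 to 0.23; edgeR adjusted p = 0.167) and passed only by library size scaling (adjusted p = 0.0439). Polr2l had -0.05 (95% interval -0.26 to 0.16). These 4 intervals allow rises of up to 0.23 and falls of up to 0.26, so changes as large as those of Polr1c or Polr2a lie outside them, whereas changes as small as that of Polr3b do not in every case. Polr2k, with 80 counts in controls and 67 after knockdown, had an interval from -0.93 to 0.43 and was too thinly counted to place. Polr2h, Polr2k and Polr2l have near-identical copies elsewhere, which makes their counts uncertain.

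Among the remaining polymerase III subunits, Polr3c, Polr3f and the alternative subunits Polr3g and Polr3gl form the group that helps open the promoter. Polr3g, the form known from embryonic and tumour cells, had 11.75, 13.51 and 13.36 CPM in controls and 13.57, 14.80 and 15.29 CPM after knockdown. Polr3gl, the form found widely in differentiated cells, had 11.08, 11.86 and 11.33 CPM in controls and 10.81, 11.02 and 11.75 CPM after knockdown. The Polr3g groups were adjacent without overlapping and the Polr3gl groups overlapped. Polr3g had a log2 fold change of 0.18 (95% interval -0.01 to 0.37; edgeR adjusted p = 0.129) and Polr3gl of -0.03 (-0.21 to 0.16; edgeR adjusted p = 0.830), so neither passed the test. Polr3f had a log2 fold change of -0.13 (adjusted p = 0.0824, edgeR), with Crebl2 siRNA replicate 3 inside the control range, and an adjusted p of 0.0055 without that library. Polr3c had 56 counts in controls and 65 after knockdown and did not pass. Polr1e, an initiation subunit of polymerase I, had a log2 fold change of 0.07 (95% interval -0.30 to 0.44), and Polr2m, which binds polymerase II and holds back initiation, also 0.07 (-0.31 to 0.45).

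Ratios of counts within a library need no scaling between libraries. They are given as a description, for pairs picked after the values were seen, with no test. Polr1c over Polr1d was 0.1408, 0.1469 and 0.1411 in controls and 0.2401, 0.2278 and 0.2201 after knockdown, 1.6 times as high on average. Polr2a over Polr2g went from 0.2211, 0.1985 and 0.2322 to 0.3985, 0.4186 and 0.3898, 1.85 times as high. Polr2a over Polr2b, the catalytic pair itself, went from 0.1495, 0.1513 and 0.1646 to 0.2253, 0.2323 and 0.2075. In each of these 3 pairs the lowest knockdown library lay above the highest control, so the subunits changed unequally within the same libraries. Polr3a over Polr3k was 1.38 times as high after knockdown and Polr3g over Polr3gl 1.15 times, again with no overlap.

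**Figure D3:**
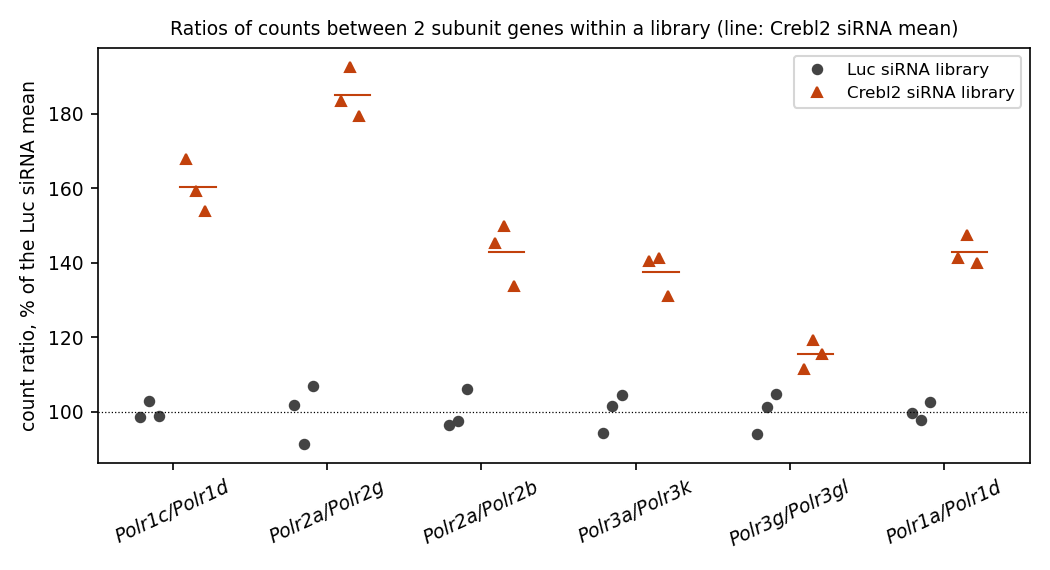
The y axis gives the ratio of counts of 2 subunit genes in each library, as a percentage of the Luc siRNA mean, for 6 pairs on the x axis, with circles for Luc siRNA, triangles for Crebl2 siRNA and a short line at the Crebl2 siRNA mean. The pairs were picked after the values were seen, each with the gene of higher log2 fold change as numerator, so the direction follows from this choice. All 6 ratios were higher in every Crebl2 siRNA library, from 1.15 times for Polr3g over Polr3gl to 1.85 times for Polr2a over Polr2g.

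Levels can be set side by side only per length, and the values here are for 11 members whose counted transcript has at least 95% of its bases to itself. On a scale of CPM per kilobase of such bases, Polr2f (238.9 ± 15.4) and Polr2g (232.9 ± 1.69) stood highest in the control libraries (mean ± SD, n = 3), with overlapping values. Polr2e followed at 185.1 ± 4.66, and the catalytic Polr2b at 71.47 ± 4.11. Below them came Polr2d at 54.26 ± 0.919, Polr3k at 50.64 ± 2.13, Polr2h at 36.3 ± 1.39 and Polr1a at 30.61 ± 0.509. Polr3b (22.72 ± 0.674) and Polr3a (22.3 ± 0.501) overlapped each other, and Polr2l was lowest at 5.085 ± 0.0885. The control values of all other neighbours in this order did not overlap, although those of Polr2d and Polr3k nearly met. Genes named for polymerase II stood at both ends of this order, but the low end rests on Polr2l alone. Of the 1650 bases of Polr2l, 1439 are 3′ UTR, and a stretch of 382 is 99.7% identical to a Usp50 transcript. Bases to itself refers to overlap with other deposited rows, and Polr2h and Polr3a also have near-identical copies elsewhere. The catalytic Polr2b was at 71.47 where Polr1a was at 30.61 and Polr3a at 22.3 CPM per kilobase. After knockdown Polr3a stood at 27.13 and Polr3b at 25.86, and Polr2g, at 200 CPM per kilobase, had moved away from Polr2f at 257.6. In bulk RNA, fewer expressing cells and less RNA per cell cannot be told apart.

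**Figure D4:**
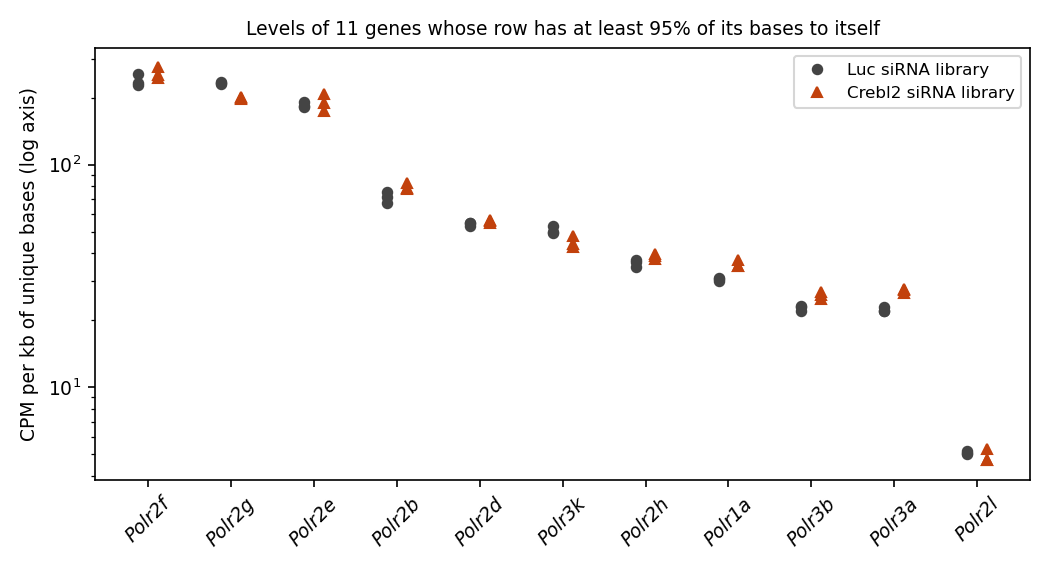
The y axis, a log axis, gives CPM per kilobase of unique bases in each library for the 11 genes on the x axis, with circles for Luc siRNA and triangles for Crebl2 siRNA. Genes are ordered by their control mean, from Polr2f at 238.9 to Polr2l at 5.085.

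Several catalytic subunits have long transcripts (Polr1a 9216 bases and Polr2a 6740), and calls were also counted by transcript length over all protein-coding genes tested. Among genes of 4000 to 10000 bases, 20.9% were called higher and 25.1% lower over 3019 genes, and 5 of 7 members in this range were called higher and 1 lower. Among genes of at most 1000 bases, 12.3% were called higher and 17.1% lower over 592 genes, and of 5 members there 0 were higher and 1 lower. From 1000 to 2000 bases, 18.7% were called higher and 19% lower, and of 7 members 1 was higher and 1 lower. From 2000 to 4000 bases, 18.9% were called higher and 22.6% lower, and of 8 members 1 was higher and 1 lower. The part of length in the members' calls was not tested.

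Polrmt, the mitochondrial enzyme at chr10:79736123-79746581 on the minus strand, had 4.243, 3.763 and 3.690 CPM in controls and 4.225, 3.782 and 3.029 CPM after knockdown. The groups overlapped. Its log2 fold change was -0.08 (95% interval -0.40 to 0.23; edgeR adjusted p = 0.695), from 326 counts in controls and 307 after knockdown that fall on 222 coding bases of exon 9, 5.91% of the transcript. Of 13 mRNAs encoded by the mitochondrial genome, which Polrmt transcribes, 10 were tested, 4 were called lower and 0 higher, and the median log2 fold change was -0.50. Over all genes tested 20.1% were called lower. The tested mt-Co2, mt-Co3 and mt-Atp6 had only 44, 60 and 79 counts in controls, where mt-Co1 had 529349. mt-Nd2, a subunit gene of respiratory complex I, had 3333, 3646 and 3575 CPM in controls and 2700, 974.8 and 2535 CPM after knockdown. Every knockdown library was below the controls, and Crebl2 siRNA replicate 2, the library with the low mitochondrial share, was far below the other two. The log2 fold change of mt-Nd2 was -0.77 (adjusted p = 0.0131, edgeR) and -0.42 without that library, that of mt-Nd1 -0.66 (adjusted p = 0.0208) and -0.33, and that of mt-Nd5 -0.50 (adjusted p = 0.0394) and -0.21. The call of mt-Nd5 was lost when any 1 Luc siRNA library was left out, and that of mt-Nd1 without Luc siRNA replicate 2 (adjusted p = 0.0504). Without Crebl2 siRNA replicate 2, the mitochondrial mRNAs called lower numbered 5. Without Luc siRNA replicate 2 or 3 there were 1 and 2, without Crebl2 siRNA replicate 1 there were 7, and DESeq2 called 0. Library size scaling, upper quartile scaling and a filter at 1 CPM each gave 2. By limma-voom there were 5, and without a filter, or with the replicate number as a block, 7.

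The same fit was read for the factors that work with these polymerases, in lists by function. Of 4 subunits of polymerases I and III under other symbols, 3 were tested, and Crcp, a polymerase III stalk subunit, rose from 35.84 ± 2.79 to 42.71 ± 2.58 CPM (log2 fold change 0.25; edgeR adjusted p = 0.00907, and 0.0642 without Luc siRNA replicate 3). Of 7 polymerase I initiation and termination factors tested, 2 were called higher and 0 lower. Rrn3, the factor that recruits polymerase I to the ribosomal DNA promoter, rose from 221.1 ± 2.68 to 273.7 ± 7.17 CPM (log2 fold change 0.31), and Taf1a, a subunit of the promoter selectivity factor, had a log2 fold change of 0.27 (adjusted p = 0.00369, edgeR). Of 16 tested general polymerase II initiation factors, 3 were called higher and 1 lower, with a median of 0.11, and by library size scaling 5 and 0. The lower count was 0 when any 1 library other than Crebl2 siRNA replicate 3 was left out, and 2 without that library. The higher ones were Gtf2h2 (0.36) and Gtf2h3 (0.14), both of TFIIH, and Gtf2e1 (0.24) of TFIIE. The call of Gtf2h3 was lost when any 1 Luc siRNA library or Crebl2 siRNA replicate 2 was left out (adjusted p up to 0.138).

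Polymerase II pausing and elongation factors held calls in both directions, 6 higher and 3 lower of 14 tested, with a median of 0.13. Ell2, a factor that raises the elongation rate, fell from 28.90 ± 2.01 to 18.69 ± 1.15 CPM (log2 fold change -0.63; edgeR adjusted p = 7.42e-06). Ccnt2, a cyclin partner of the kinase Cdk9, had a log2 fold change of -0.48 (adjusted p = 0.000172, edgeR), and Ctr9 of the PAF complex had 0.30 (6.61e-05). Of 13 tested polymerase III initiation factors and regulators, 2 were called higher and 2 lower, among them Gtf3c3 (0.26), Brf1 (-0.22) and Snapc5 (-0.44). Without Luc siRNA replicate 2 or 3, or Crebl2 siRNA replicate 2 or 3, there was 1 higher. Of 11 tested mitochondrial transcription and replication factors, 3 were called higher (5 by library size scaling) and 0 lower (Polg2 0.34, Mterf1b 0.77, Mterf3 0.26). Mterf3 lost its call without Luc siRNA replicate 2 or Crebl2 siRNA replicates 2 or 3 (adjusted p up to 0.067). Of 13 tested factors of polymerase assembly and nuclear import, 4 were called higher and 0 lower, with a median of 0.11. There were 7 higher by library size scaling and 2 without Luc siRNA replicate 3. Rpap3, which works with the HSP90 chaperone in assembling the polymerases, rose from 125.2 ± 1.48 to 154.7 ± 4.82 CPM (log2 fold change 0.31; edgeR adjusted p = 0.000121), while Ruvbl1 had 0.21 and the GTPase gene Gpn1 0.20 (adjusted p = 0.0813 without Luc siRNA replicate 3). Against 18.8% of all genes called higher and 20.1% lower, these shares are read as counts only.

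**Figure D5:**
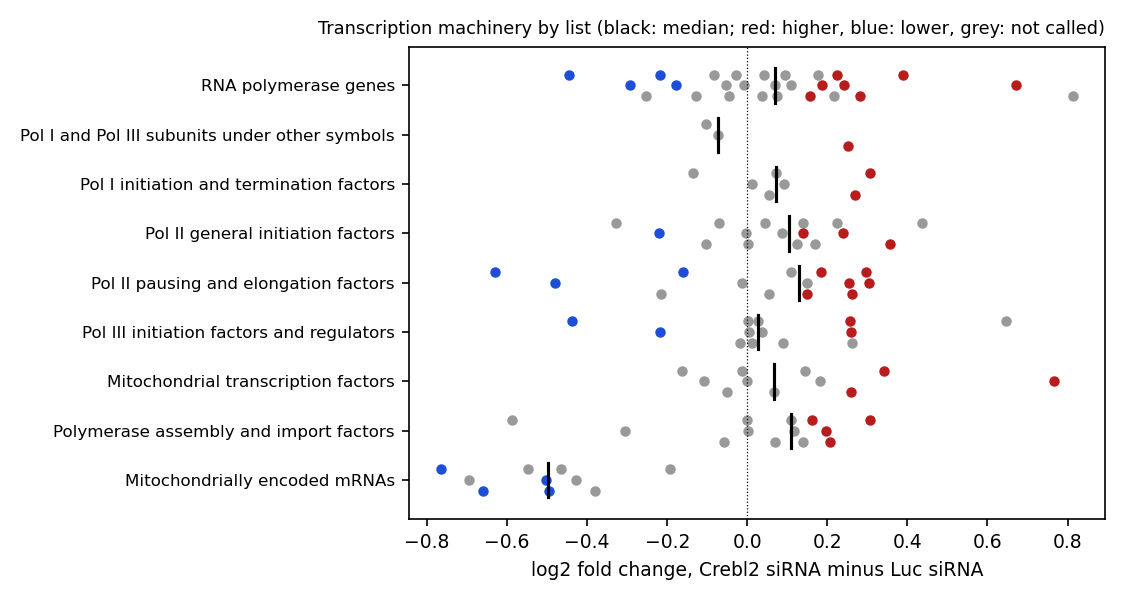
Each point is a tested gene's log2 fold change (Crebl2 siRNA minus Luc siRNA) on the x axis, in rows for the polymerase genes and 8 lists of related genes on the y axis, red where called higher, blue where called lower, grey where not called, with a black bar at the row's median. The medians lie between -0.07 and 0.13 except for the mitochondrially encoded mRNAs at -0.50.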

How the data were processed

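Counts per Ensembl transcript were deposited by the authors for 6 libraries, in 58611 rows. Per the submitters' processing notes, Trim Galore, TopHat and HTSeq were used, with the builds mm9 and GRCm38, without versions. Reads common to several transcripts appear not to be counted, so a count reflects the bases unique to a row. Of the rows, 58264 matched GENCODE M21 by transcript identifier, and counts were summed per gene. Genes were filtered with filterByExpr, scaled by TMM and tested with edgeR 4.0.16 (R 4.3.3) by the two-sided quasi-likelihood test on all 6 libraries, with Benjamini-Hochberg adjustment over 11616 genes. The method was tested on simulated data. Alternatives used other scalings, DESeq2 1.42.0, limma 3.58.1, other filters, single rows and leaving out each library. By the rule for named genes every member is named, and from each list up to 3 called genes with the smallest p, except that 1 member and 1 marker gene enter the counts and are not reported here. Members and lists were chosen with earlier results of these data known. Near-identical copies were sought at 95% identity or more over 200 bases or more. Promoter sequence and annotation came from RefSeq (GRCm38.p6). SE and 95% intervals are from the quasi-likelihood fit, and intervals of single genes are not adjusted for the number of genes. Depth was 27082572 to 29158489 counts, and reads are not independent molecules.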

Additional observations from a re-analysis of the deposited data

How the results depend on the processing

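Of the 11 called members, 7 were called in the same direction in all 16 alternatives (Polr1a, Polr1b, Polr1c, Polr1d, Polr2a, Polr2g and Polr3a) and 4 lost the call in at least 1 (Polr2b, Polr3b, Polr3e and Polr3k). By library size scaling the members called lower numbered 2, and the median log2 fold change of the members was 0.12 where the median of all genes was 0.05. Leaving out each library gave 2 to 4 members called lower (2 without Luc siRNA replicate 1 or Crebl2 siRNA replicate 1) and medians from 0.0398 (without Luc siRNA replicate 3) to 0.0987 (without Luc siRNA replicate 2). Members called higher numbered 5 without Luc siRNA replicate 3. Genes changed over all genes tested ranged from 3639 to 4661, and the fit on single rows called 4686 rows. The catalytic subunits called higher were 6 or 5 in every alternative except without Luc siRNA replicate 3, where they were 4. The fold change turned sign for members that were called under neither setting: by library size scaling Polr2c was 0.0409 and Polr3gl 0.0202, and by upper quartile scaling Polr2c was 0.0094. Leaving out each library gave -0.0476 (without Luc siRNA replicate 3) to 0.1367 for Polr1e, -0.0741 to 0.0407 (without Crebl2 siRNA replicate 3) for Polr2c, -0.0204 (without Crebl2 siRNA replicate 1) to 0.1015 for Polr2e, -0.0896 (without Crebl2 siRNA replicate 2) to 0.2137 for Polr2m and -0.1936 to 0.0379 (without Crebl2 siRNA replicate 3) for Polrmt. The causes were not tested. Libraries with the same replicate number did not deviate together (correlations of -0.133, -0.0443 and -0.0847). This gave no sign that the numbers pair the samples, but it cannot exclude pairing. With the replicate number as a block, 3983 genes were called (1882 higher and 2101 lower), 6 members were higher and 3 lower, and Polr2b (adjusted p = 0.0547) and Polr3e (0.0555) did not pass, by edgeR. Polr2i, Polr2j, Polr2k, Polr3c and Polr3d have few counts, and Polr2i, Polr2k, Polr3c and Polr3d were read from rows with at most 77, 135, 236 and 170 bases to themselves.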

Other observations

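The remaining genes called in the lists of polymerase factors are named here after their values were seen, to complete those lists. Among pausing and elongation factors, Nelfa, a subunit of the negative elongation factor, had a log2 change of 0.30 (adjusted p = 0.000338, edgeR) and Hexim1, which holds the kinase complex P-TEFb inactive, 0.18 (0.00656). Ccnt1, the main cyclin of that complex, had 0.25 (adjusted p = 0.0037), where its paralogue Ccnt2 had -0.48. Within the PAF complex, Leo1 had 0.26 (adjusted p = 0.00114) alongside the rise of Ctr9, and Rtf1, which associates with that complex, had -0.16 (0.0134). Ell had 0.15 (adjusted p = 0.0457) where Ell2 had -0.63. Mnat1, a subunit of the TFIIH kinase, had -0.22 (adjusted p = 0.0372) while 2 other TFIIH genes rose. Bdp1, a subunit of the factor that brings polymerase III to its promoters, had 0.26 (adjusted p = 0.0404), opposite in sign to its partner Brf1 at -0.22. The prefoldin gene Pfdn2 had 0.16 (adjusted p = 0.0161). The mitochondrial mRNA mt-Nd6 had -0.50 (adjusted p = 0.0397). Leaving out single libraries ended the call of Bdp1 (Luc siRNA replicates 2 and 3, Crebl2 siRNA replicates 2 and 3), Ell and Mnat1 (each library except Crebl2 siRNA replicate 3), Pfdn2 (each Luc siRNA library), Rtf1 (Luc siRNA replicate 3 and Crebl2 siRNA replicate 2) and mt-Nd6 (Luc siRNA replicates 2 and 3). Mnat1, Rtf1 and mt-Nd6 also did not pass by library size scaling, nor did Mnat1 and mt-Nd6 by upper quartile scaling. Bdp1 did not pass by limma-voom, Ell without a filter and mt-Nd6 with the 1 CPM filter. DESeq2 called 0 of the mitochondrial mRNAs.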
